A study of Mus musculus with 2 samples.

Results

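The early B cell and pre-BCR genes are 9 genes that B cell progenitors use to rearrange, display and read out the immunoglobulin heavy chain: Vpreb1, Vpreb3, Igll1, Cd79a, Cd79b, Ebf1, Pax5, Rag1 and Blnk. They were taken from the 20660 genes that could be named on the array. They were picked by name with the difference between the arrays already known, so their signals and ratios are a description of the data, with no test. Both arrays measured primitive erythroid progenitors, called pre CFU-E, of C57BL/6 mice aged 8 to 12 weeks. One array held cells from wild type (WT) mice, and the other held cells from mice lacking the endothelial cell-selective adhesion molecule (ESAM-KO). All mice had received a single injection of 120 mg/kg of 5-FU (5-fluorouracil, a drug that kills dividing cells) and were killed 8 days later. The comparison asks how gene expression differs between the genotypes in erythroid progenitors that are rebuilding the blood. Cells were sorted from bone marrow as c-Kit+, endoglin+ and CD150+ cells that were Lin- and Sca1-, with FCgRII/III-/Lo and CD41Lo staining. The lineage antibodies of this gate, whose positive cells were discarded, included those against B220, a surface protein of B lineage cells, and against the myeloid proteins Mac1 and Gr1. Marrow of 3 mice per genotype was pooled before the sort, and the amplified RNA was hybridised to 1 array per genotype, so there is no replicate, and SDs and p-values cannot be given. Differences between genotypes, pools, sorts and amplifications cannot be told apart.

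The pre-BCR is assembled when a progenitor B cell has made a heavy chain but no light chain. Vpreb1 and Igll1 form the surrogate light chain that pairs with this heavy chain, and Cd79a and Cd79b are the signalling chains that carry the complex to the surface and pass its signal to kinases and the adaptor Blnk. The recombinase made from Rag1 and Rag2 cuts the immunoglobulin loci, and the transcription factors Ebf1 and Pax5 start and hold the B cell programme. In mouse bone marrow these genes mark B lineage progenitors, and some of them are also transcribed at a low level in earlier lymphoid-primed progenitors.

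On the ESAM-KO array 6 of the 9 genes were lower by more than 2-fold than on the WT array, and none was higher by more than 2-fold. These 6 were Vpreb1, Igll1, Vpreb3, Cd79b, Ebf1 and Blnk. A ratio, or a bound where only 1 array was well above background, was available for 8 of the 9. Of all named genes with such a value, 8.43% were lower by more than 2-fold. Among the 9 genes the count was 1 with normexp background correction and quantile normalization, and 2 when both arrays had to be well above background. Vpreb1, Igll1 and Cd79b were each lower by more than 4-fold, Cd79a and Pax5 stayed within 2-fold, and Rag1 was not detected on either array, meaning that its signal was never well above background by the scanner software.

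The promoters of 5 of these genes are shown because they hold the DNA letters that B lineage factors are known to read, and because they put 4 genes that were lower on the ESAM-KO array beside Cd79a, which was not. Each is the 250 bases before the transcription start in RefSeq, build GRCm38.p6, written 5′ to 3′ along the gene's own strand, and capitals mark the matched motifs. Motifs were searched on both strands. They were the octamer ATGCAAAT read by Oct factors with their B cell coactivator Pou2af1, the E-box CAGGTG read by E2A, and the Ebf1 core CCCNNGGG with its longer form, which contains the core and adds a T before it and an A after it.
Vpreb1, chr16:16869256-16869505, minus strand: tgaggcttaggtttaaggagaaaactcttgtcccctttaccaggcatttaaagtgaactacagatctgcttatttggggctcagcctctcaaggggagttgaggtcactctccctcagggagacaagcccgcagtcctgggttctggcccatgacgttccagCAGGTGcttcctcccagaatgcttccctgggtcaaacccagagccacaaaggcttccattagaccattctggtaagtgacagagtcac
Igll1, chr16:16863986-16864235, minus strand: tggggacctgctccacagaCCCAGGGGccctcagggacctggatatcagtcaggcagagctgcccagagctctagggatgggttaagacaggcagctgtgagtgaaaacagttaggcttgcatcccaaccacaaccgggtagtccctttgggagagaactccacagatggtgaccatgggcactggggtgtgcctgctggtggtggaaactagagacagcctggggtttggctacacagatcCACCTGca
Vpreb3, chr10:75948050-75948299, plus strand: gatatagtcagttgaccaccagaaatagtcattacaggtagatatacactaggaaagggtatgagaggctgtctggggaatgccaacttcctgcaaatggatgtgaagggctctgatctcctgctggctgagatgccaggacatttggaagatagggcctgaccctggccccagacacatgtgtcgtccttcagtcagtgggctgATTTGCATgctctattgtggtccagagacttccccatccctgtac
Blnk, chr19:40994222-40994471, minus strand: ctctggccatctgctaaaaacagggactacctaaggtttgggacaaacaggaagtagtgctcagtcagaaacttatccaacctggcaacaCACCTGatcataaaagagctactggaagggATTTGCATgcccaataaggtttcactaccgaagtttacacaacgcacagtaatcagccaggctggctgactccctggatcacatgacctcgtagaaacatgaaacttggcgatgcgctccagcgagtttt
Cd79a, chr7:24897247-24897496, plus strand: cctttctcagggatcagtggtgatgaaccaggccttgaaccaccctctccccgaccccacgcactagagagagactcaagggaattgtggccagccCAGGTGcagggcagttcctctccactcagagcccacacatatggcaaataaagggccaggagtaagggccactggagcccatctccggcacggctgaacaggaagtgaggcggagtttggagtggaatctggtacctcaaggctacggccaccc
Promoters were matched for 8 of the 9 genes, in 9 windows since Ebf1 has a pair of starts, and Cd79b was not matched. The octamer stood in the windows of Vpreb3, at 45 to 38 bases before the start, and of Blnk, at 130 to 123 bases, both times as its reverse complement. It was found in 1.60% of the 32851 promoter windows of the same length. The E-box was found in the windows of 5 of the genes, Vpreb1, Igll1, Cd79a, Blnk and Rag1, and in 17.2% of all windows. In Igll1 it lay 8 to 3 bases before the start and in Vpreb1 88 to 83 bases before it. The Ebf1 core was found only in Igll1 among the 9 windows, at 231 to 224 bases, against 11.8% of all windows, and the longer form was found in none of them, against 0.779% of all windows. Genes on either side of 2-fold held the same E-box, since Cd79a carried it at 154 to 149 bases before its start. Igll1 and Vpreb1 are direct neighbours on chromosome 16 in the order of RefSeq genes. A match of letters is a description and not evidence of binding.

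The arrays were read as follows. The processed signal is the scanner software's background-subtracted intensity, in arbitrary units, and the log2 ratio is that of ESAM-KO over WT after each array was set to its 75th percentile, 201.4 for WT and 251.1 for ESAM-KO. This scaling lowers every log2 ratio by 0.32. A probe was called detected where the scanner software marked it as well above background, which held for 57.3% of WT spots and 61.1% of ESAM-KO spots. The lowest such signals were 12.6 and 13.2. A probe detected by a single array has a bound, given as at least N-fold, which sets the detected signal against the higher of the other array's lowest such signal and the probe's own signal there. Over the 14136 genes with a ratio or bound the median log2 ratio was 0.00056, with the 5th and 95th percentiles at -1.34 and 1.17. Of these, 8.43% were lower and 6.99% were higher by more than 2-fold in ESAM-KO.

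The targeted gene was within 2-fold and detected on both arrays. Signals of Esam (NM_027102) were 27.4 in WT and 20.6 in ESAM-KO, for a log2 ratio of -0.73 with a scanner software error of 0.31. Whether its probe lies in the deleted part of the gene was not given in the sources used here, so this value does not check the labels. The sorted cells carried erythroid progenitor markers on both arrays. The erythroid transcription factor Gata1 read 5959 and 5889, a log2 ratio of -0.34, and Klf1 read 1149 and 1147, a log2 ratio of -0.32. The erythropoietin receptor Epor was at -0.10. The sort markers Kit, Eng and Slamf1 were at -0.36, -0.80 and 0.05, and Slamf1 (CD150) was dim, at 17.8 and 23.0.

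Both parts of the surrogate light chain were lower by more than 4-fold in ESAM-KO. Vpreb1 (NM_016982), its variable-like part, read 255.5 ± 25.7 (scanner software error) in WT and 58.2 ± 6.53 in ESAM-KO. It was detected on both, with a log2 ratio of -2.45 (error 0.22), or 5.48-fold lower in ESAM-KO. Its WT signal was 20.3 times the lowest detected signal of that array, and its ESAM-KO signal was 4.42 times that of the ESAM-KO array. The size of its ratio still depended on the background treatment, at -1.69 with normexp and quantile normalization. Igll1 (NM_001190325), which encodes lambda5, the constant-like part, read 62.9 ± 6.96 in WT and 7.34 ± 3.20 in ESAM-KO. The second value was not a detected signal, so Igll1 was at least 5.97-fold lower (log2 bound -2.58). Both parts of the surrogate light chain were thus present on the WT array, and only Vpreb1 remained detected on the ESAM-KO array. Vpreb3 (NM_009514), a relative of Vpreb1 that binds newly made heavy chains inside the cell, was closer to the background. It read 28.4 ± 4.09 in WT and 5.50 ± 3.17, not detected, on the ESAM-KO array, which makes it at least 2.70-fold lower (log2 bound -1.43). Its WT signal was 2.26 times the lowest detected signal, so the background limited how large a bound it could give.

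**Figure D1:**
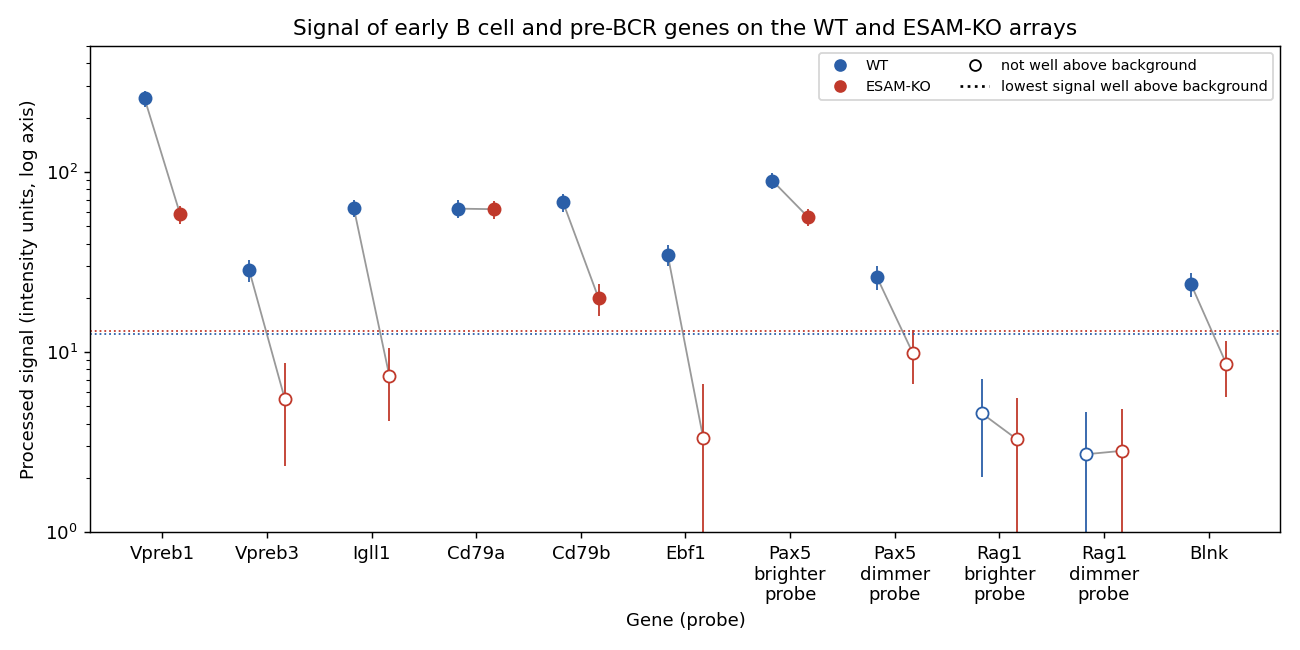
Processed signal (intensity units, log axis) of every probe of the 9 genes on the WT array (blue) and the ESAM-KO array (red), with the scanner software's error as bars, cut off at the lower edge of the plot, and open circles for signals not well above background. Vpreb1 goes from 255.5 to 58.2 and Cd79a reads 62.5 and 62.1, while Vpreb3, Igll1, Ebf1, Blnk and the dimmer Pax5 probe pass below the dotted lines, the lowest signals well above background of 12.6 and 13.2, on the ESAM-KO array.

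The chains that signal from the pre-BCR gave different values. Cd79a (NM_007655, Igα) read 62.5 ± 6.93 in WT and 62.1 ± 6.97 in ESAM-KO. After scaling this gave a log2 ratio of -0.33 (error 0.23), within 2-fold. Its partner Cd79b (NM_008339, Igβ) read 67.8 ± 7.54 in WT and 19.8 ± 3.98 in ESAM-KO, where it was still detected. This gave a log2 ratio of -2.09 (error 0.33), or 4.26-fold lower in ESAM-KO. The proteins act as a pair in B cells, and here the single probe of one differed past 2-fold while that of the other did not. Blnk (NM_008528), the adaptor that links the kinase Syk to the enzymes downstream, read 23.9 ± 3.62 on the WT array. In ESAM-KO it read 8.56 ± 2.96 and was not detected. Blnk was at least 2.27-fold lower (log2 bound -1.18), the bound nearest to 2-fold among the 6 genes past it. Its WT signal was 1.90 times the lowest detected signal of that array.

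Of the transcription factors, Ebf1 was past 2-fold and Pax5 was not at its brighter probe. Ebf1 (NM_007897), which opens the B cell programme and acts on the Igll1, Vpreb1 and Cd79 genes, read 34.7 ± 4.73 in WT and 3.31 ± 3.33 in ESAM-KO. The ESAM-KO value was not a detected signal and lay within its own error of 0, so Ebf1 was at least 3.29-fold lower (log2 bound -1.72). Pax5 (NM_008782), which commits cells to the B lineage, has a pair of probes. The brighter read 89.4 ± 9.31 and 56.2 ± 6.24, a log2 ratio of -0.99 with an error of 0.22, or 1.98-fold lower, just inside 2-fold. The dimmer read 26.0 ± 3.97 and 9.93 ± 3.26, the second not detected, and was at least 2.47-fold lower. Both Pax5 probes were thus lower in ESAM-KO, and they lay on either side of 2-fold. For Rag1 (NM_009019), the catalytic recombinase subunit, neither probe was detected on either array. One read 4.58 and 3.27 and the other 2.71 and 2.83, so no ratio is given.

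**Figure D2:**
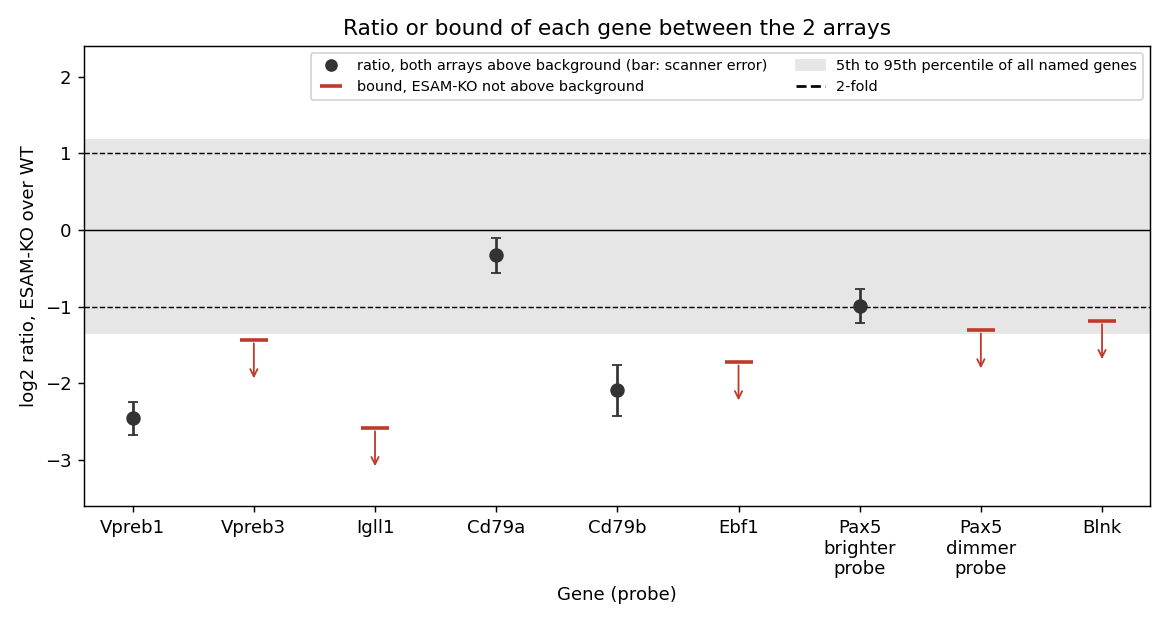
Log2 ratio of ESAM-KO over WT for each probe of the 8 genes with a value. Points with scanner error bars are ratios measured on both arrays, and red ticks with arrows are bounds. Igll1 has the lowest value at -2.58, a bound, followed by Vpreb1 at -2.45 and Cd79b at -2.09, all below the grey band between the 5th and 95th percentiles of all named genes (-1.34 and 1.17), whereas Cd79a at -0.33 and the brighter Pax5 probe at -0.99 lie inside the 2-fold lines.

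Over the 8 genes with a value, 4 rested on a ratio and 4 on a bound, and the median was -1.57. All 4 ratios were below 0. The 4 bounds are below 0 by their rule, since each gene was detected on the WT array only, so their sign adds nothing. The 9 genes were dim, since the 8 detected on the WT array read 23.9 to 255.5 there, and 4 of the 9 were detected on the ESAM-KO array. Genes with such signals were lower past 2-fold more often than all named genes. Among the 5713 named genes with a WT signal in the same range, 12.9% were lower by more than 2-fold and 3.75% were not detected in ESAM-KO. Vpreb1 alone set the upper end of this range, and the next brightest, Pax5, read 89.4 in WT. These shares are thus not matched to the dimmer members. Among the genes detected on both arrays, 7.37% were lower and 5.22% were higher by more than 2-fold, and 2 of the 4 early B cell genes of this kind, Vpreb1 and Cd79b, were lower. The summed signal of the 9 genes, in units of each array's 75th percentile, was 3.13 in WT and 0.893 in ESAM-KO. Without Vpreb1, which alone gave 1.27 and 0.232, it was 1.86 and 0.661. These sums include signals that were not detected. In a sorted pool, fewer cells that transcribe these genes and less of their RNA per cell cannot be told apart.

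**Figure D3:**
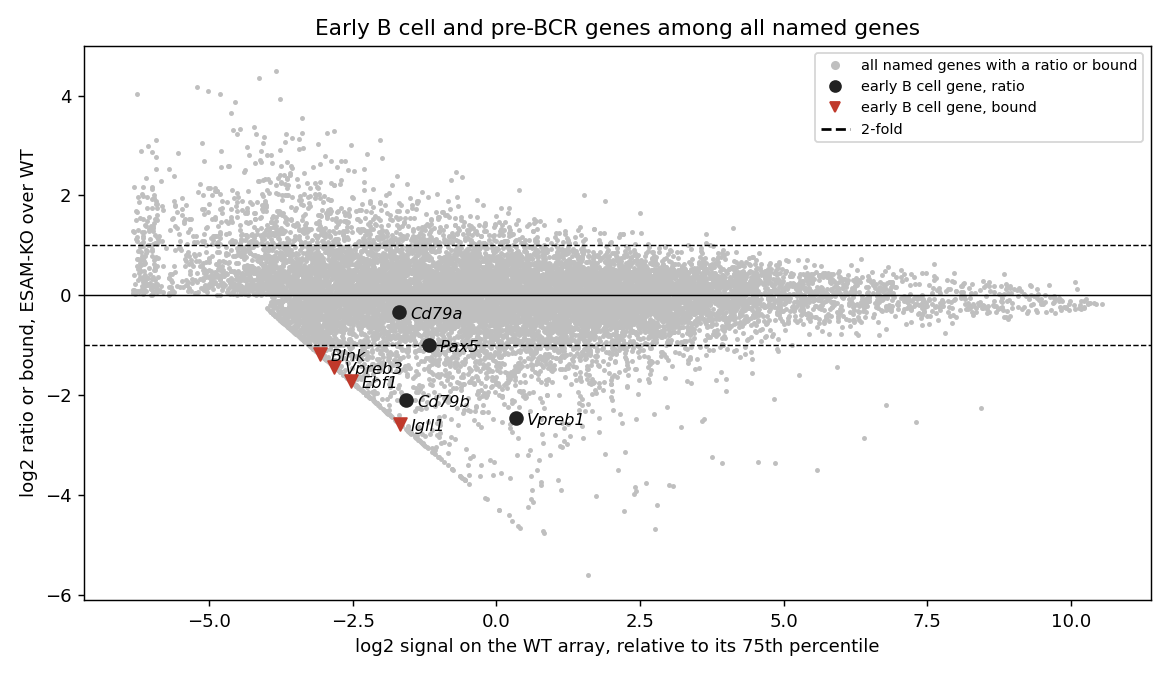
Log2 ratio or bound of ESAM-KO over WT against the log2 signal on the WT array relative to its 75th percentile, for 14136 named genes (grey) and the 8 early B cell genes with a value (black points for ratios, red triangles for bounds). The bounds of Blnk, Vpreb3, Ebf1 and Igll1 lie on the lower edge set by the ESAM-KO background, and Vpreb1 and Cd79b lie below the 2-fold line among genes measured on both arrays.

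In 5 lists of other B lineage genes, 88 were on the array and 74 had a ratio or bound. Of these, 16 (21.6%) were lower by more than 2-fold, against 8.43% of all named genes, and 5 (6.76%) were higher, against 6.99%. Such a share lower was not particular to B lineage genes. In the marker lists below it was 92.9% for neutrophils, 30% for megakaryocytes and 21.1% for erythroid progenitors. It was 12.5% for macrophages, 8.33% for T and NK cells and 0% for plasmacytoid dendritic cells. These shares read each gene at its brightest probe. Among 10 other genes of receptor assembly, all of which had a value, 2 were lower, 1 was higher, and the median was -0.15. Vpreb2, a near-identical copy of Vpreb1, read 42.8 in WT and 15.4, not a detected signal, in ESAM-KO, at least 3.46-fold lower. Binding of Vpreb1 RNA to the Vpreb2 probe was not tested, and its value is uncertain for that reason. Rag2, the partner of Rag1, was detected in WT at 38.1 and read 3.69 in ESAM-KO, at least 3.61-fold lower, while its other probe was not detected on either array. The DNA end-joining factor Xrcc4 went the other way, from 7.14, not detected, to 32.0, at least 2.04-fold higher in ESAM-KO. Dntt, the polymerase that adds bases at heavy chain joints in early lymphoid progenitors, was within 2-fold, at 207.8 and 200.8 with a log2 ratio of -0.37.

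Of the other B lineage transcription factors, 17 of 20 had a value, 5 were lower by more than 2-fold, none was higher, and the median was -0.10. The ETS factors Spi1 (PU.1) and Spib differed most. Spi1 read 439.8 and 36.9, a log2 ratio of -3.89, and Spib read 345.9 and 30.9, a log2 ratio of -3.80. Spi1 also drives myeloid cells and Spib plasmacytoid dendritic cells, so neither is particular to B cells. Pou2af1, the octamer coactivator, read 243.2 and 71.1 (-2.09), and Zbtb17 (Miz-1), which B cell progenitors need to respond to interleukin-7, read 231.5 and 90.7 (-1.67). Bach2, a repressor used by lymphoid progenitors, read 87.2 and 24.8 (-2.13) at its brighter probe, but its dimmer probe read 6.27 and 25.7, a bound of 0.71 in the opposite direction. Tcf3, which encodes E2A, was at -0.10, and Foxo1 was at 0.53 by its brighter probe and at -1.14 by its dimmer one.

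In the signalling list, 19 of 21 genes had a value, 4 were lower and 1 was higher by more than 2-fold, and the median was -0.12. The kinase Prkcb was at least 4.60-fold lower, from 48.5 to 11.0, and the scaffold Bank1 was at least 3.97-fold lower, from 41.9 to 12.8. Each of these has a further probe that neither array detected. The adaptor Sh3bp2 was at -1.76 and the lipid phosphatase Inpp5d (SHIP-1), which restrains receptor signals, at -1.38. Btk, the kinase that Blnk brings to its substrate, was the exception, at 262.7 and 929.0, or 2.84-fold higher in ESAM-KO, and at a log2 ratio of 0.84 by its dimmer probe. Syk, the first kinase on the Cd79 chains, was within 2-fold at -0.72.

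Among 15 receptors and surface proteins of lymphoid progenitors, 13 had a value, 3 were lower and 2 were higher by more than 2-fold, and the median was -0.38. The tetraspanin Cd53 was at least 6.56-fold lower, from 69.2 to 3.05, and Bst1 (BP-3) was at least 3.22-fold lower, from 33.9 to 3.07, with its other probe detected on neither array. Crlf2, the receptor for the cytokine TSLP, was at -1.08. Notch1 was at 0.0039 at the probe counted, while its other probe was at least 6.18-fold lower, from 65.2 to 5.73. Further surface markers went the other way, Cd93 (AA4.1), which read 129.7 in ESAM-KO, at least 8.27-fold higher, and Cd38, from 13.3 to 115.5, at least 6.97-fold higher, and neither was detected in WT. Il7r, the receptor chain that B cell progenitors depend on, was not detected on either array.

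**Figure D4:**
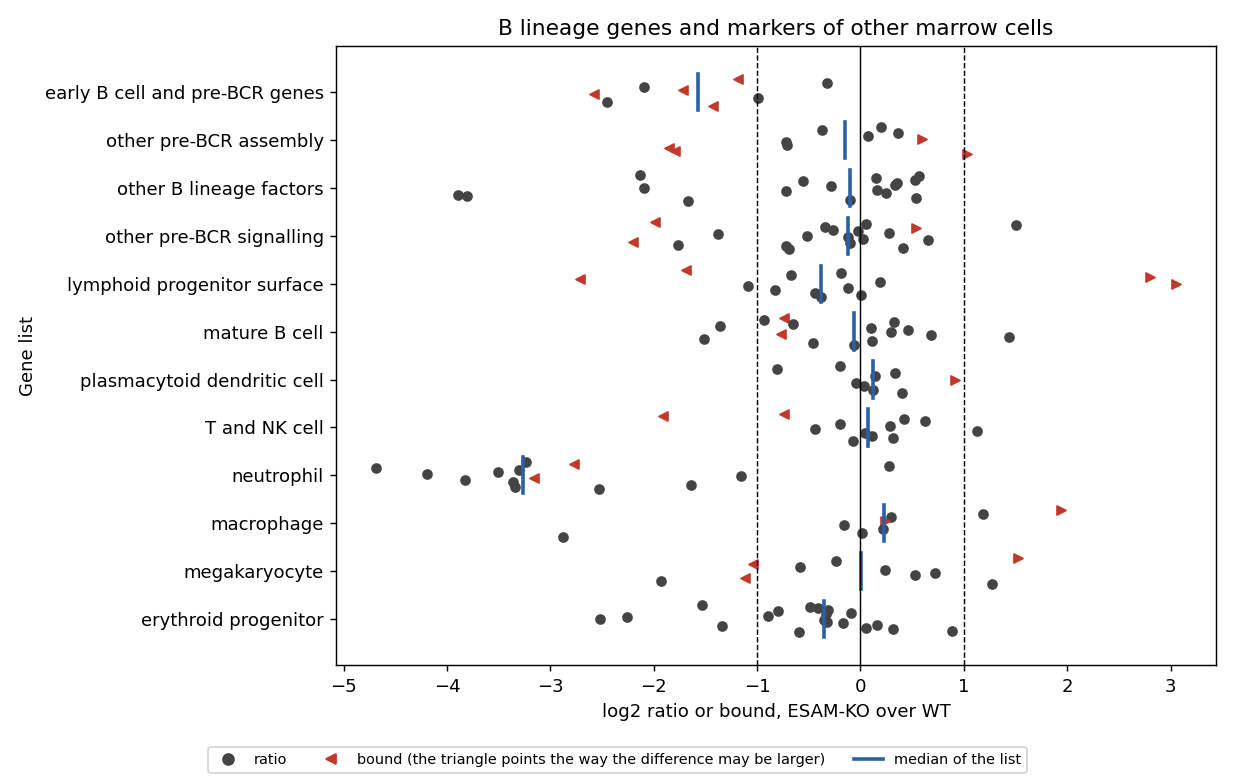
Log2 ratio or bound of ESAM-KO over WT for each gene of 12 lists, with black points for ratios, red triangles for bounds that point the way the difference may be larger, and a blue line at each list's median. The early B cell and pre-BCR genes have a median of -1.57 and the neutrophil markers one of -3.27, while the other lists have medians between -0.38 and 0.23.

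Genes of mature B cells and of other marrow cells were read in the same way. Of the 22 mature B cell genes on the array 15 had a value, 2 were lower, Cd74 at -1.36 and Siglecg at -1.52, 1 was higher, Sdc1 at 1.43, and the median was -0.07. The second Siglecg probe was at a bound of 0.12. Of the 22 genes, 15 were detected in WT and 13 in ESAM-KO, and 7 were not detected on either array. Ms4a1 (CD20), a defining surface protein of mature B cells, was among these 7, at 3.33 and 3.41. Other genes of the list were bright, such as Tnfrsf13c at 3472 and 3146 and Cd22 at 2152 and 3363. Of 12 plasmacytoid dendritic cell markers on the array, 9 had a value, with a median of 0.12. None was past 2-fold at its brightest probe. A dimmer Tcf4 probe, detected on both arrays at 115.7 and 71.4, was lower at -1.02. The summed signal of the list, in units of the 75th percentile, was 49.0 in WT and 49.7 in ESAM-KO. Siglech gave 34.5 and 33.4 of these sums, and without it they were 14.5 and 16.3. Of 20 T and NK cell markers, 12 had a value, Cd3d was lower by at least 3.75-fold and Lat was higher at 1.13, with a median of 0.07 and a summed signal of 17.4 and 20.4.

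Neutrophil markers were also lower in ESAM-KO. Of 15 such markers 14 had a value and 13 were lower by more than 2-fold, with a median of -3.27. The widest differences were those of the granule proteins Ctsg (-4.68), Ltf (-4.20) and Mpo (-3.82). The exception was Csf3r, the receptor for G-CSF, at 0.28, and Itgb2l was detected on neither array. All 14 were detected in WT and 12 in ESAM-KO, and the summed signal was 547.7 in WT and 341.7 in ESAM-KO. Without Csf3r, which alone gave 301.4 of the ESAM-KO sum, the summed signal was 298.7 in WT and 40.3 in ESAM-KO. The sort discarded Mac1+ and Gr1+ cells. The part of such cells in the differences of the early B cell genes was not tested. Of 13 macrophage markers on the array 8 had a value, Vcam1 was lower at -2.88, Axl was higher by at least 3.85-fold and C1qa was higher at 1.19, with a median of 0.23. Their summed signal was 35.1 in WT and 31.8 in ESAM-KO, of which Csf1r gave 32.5 and 29.1.

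All 10 megakaryocyte markers had a value, 3 were lower and 2 were higher, and the median was 0.0014. The lower ones were Treml1 (-1.93), Ppbp (at least 2.17-fold) and Gp9 (at least 2.06-fold), and the higher ones were Vwf (1.28) and Gp1ba (at least 2.88-fold). Their summed signal was 12.4 on both arrays. All 19 erythroid markers had a value, and 4 were lower, the globins Hbb-bs (-2.52) and Hba-a1 (-2.26), the heme enzyme Alas2 (-1.53) and the transcription factor Nfe2 (-1.34). None was higher by more than 2-fold, the median was -0.36, and the summed signal was 741.5 in WT and 390.1 in ESAM-KO. Without Hba-a1, which alone gave 344.9 and 71.9, it was 396.6 and 318.1.

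The size of the differences depended on how dim signals were treated. With normexp background correction, an offset of 50 and quantile normalization, only Vpreb1 stayed past 2-fold, at -1.69, and Igll1 came to -0.99, Cd79b to -0.70, Ebf1 to -0.50, Vpreb3 to -0.42 and Blnk to -0.38. Without scaling between the arrays Blnk was within 2-fold at -0.86. Pax5 passed 2-fold with scaling to the median (-1.12), with quantile normalization (-1.06) and as the mean of its probes (-1.14). Cd79a stayed within 2-fold in every alternative, between -0.46 and -0.01. None of the 8 genes changed sign in the alternatives that gave it a value, 9 for Vpreb1, Cd79a, Cd79b and Pax5 and 8 for the other genes. For Vpreb3, Igll1, Ebf1 and Blnk no alternative could have changed the sign. Their bounds are below 0 by rule, and the ratio without the filter on dim probes cannot lie above the bound. Keeping outlier spots or changing the filter left the ratios of Vpreb1, Cd79a, Cd79b and Pax5 as they were.

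**Figure D5:**
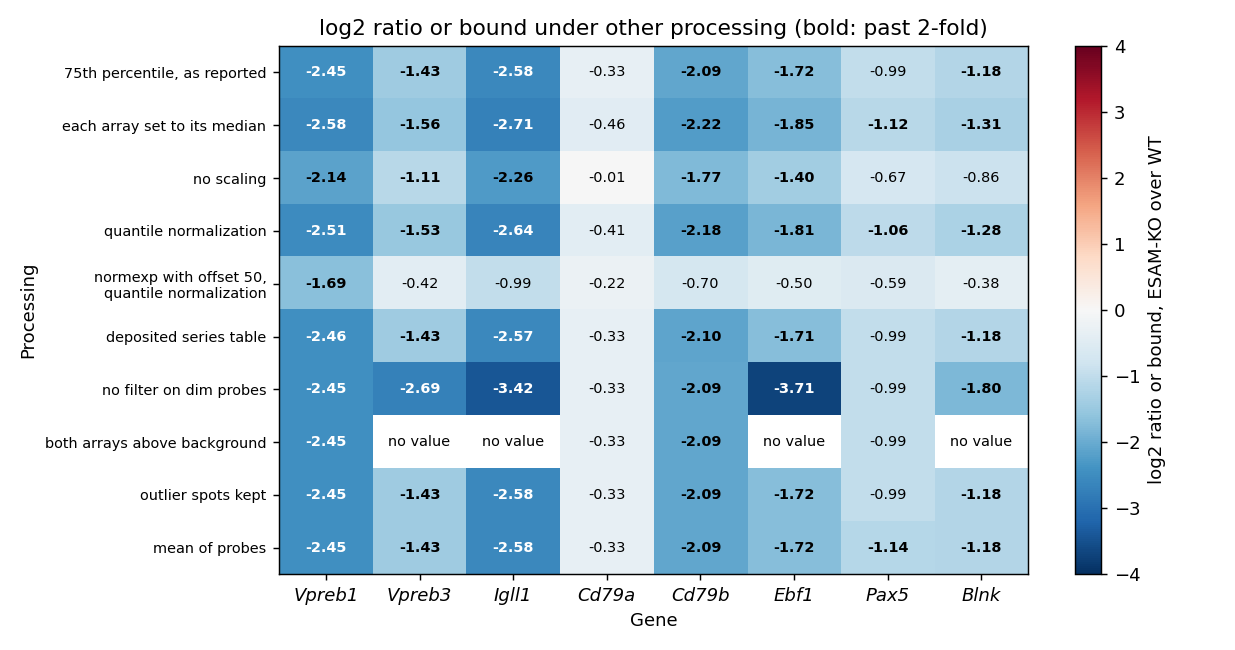
Log2 ratio or bound of ESAM-KO over WT for the 8 genes with a value (columns) under the reported processing and 9 other ways of processing (lines), with blue for lower in ESAM-KO and bold type for values past 2-fold. Vpreb1 is past 2-fold in every line, from -2.58 to -1.69, and the line for normexp holds the values nearest to 0 for every gene but Cd79a, which is at -0.01 without scaling.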

How the data were processed

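One Agilent SurePrint G3 mouse array per genotype was hybridised with Cy3-labelled cDNA from RNA amplified with the Ovation Pico WTA System. The authors deposited files of Agilent Feature Extraction 10.10.1.1 with the intensity of each spot after background subtraction, and a series table of the same intensity rounded to 3 significant digits. The scaling between arrays was not given in the sources used here.

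Control spots were left out, which kept 59305 spots of 55681 probes, and so were 254 of these marked as outliers, which kept 59051 spots. The log2 intensity minus the array's 75th percentile was averaged over the spots of a probe, and a probe was taken as detected where the software marked over 50% of its spots as well above background. Accessions were matched to RefSeq (GRCm38.p6), which named 27235 probes for 20660 genes, each read at its brightest probe. For 6424 genes the probe read was not detected on either array. Other probes were not counted under the reported processing. Some of them lay past 2-fold where the probe read did not, also for Dclre1c and Itgb3. Differences past 2-fold were counted without a test. Dim signals and the number of arrays limit the precision. The array was designed on another genome build, so coordinates are those of the promoter windows only.

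The members and lists were chosen with earlier results of these data known. Named are all members, Esam, erythroid check genes and, in each list, genes past 2-fold, or the 3 largest falls and rises where over 6 are. Dntt, Tcf3, Foxo1, Syk, Il7r, Ms4a1, Tnfrsf13c, Cd22, Csf3r, Csf1r and Itgb2l were named after their values were seen. So were Tec, Pik3cd, Cr2, Notch1, Tcf4, Siglech, Dclre1c and Itgb3. Other genes of the lists are counted and not named. R 4.3.3 with limma 3.58.1 and Python 3.11.15 with numpy 2.4.6, pandas 2.3.3 and matplotlib 3.10.9 were used, and the counting was tested on simulated data. The alternatives were other scalings, normexp, the series table, the mean of probes, other filters on dim probes, use of outlier spots, and thresholds of 3-fold and 4-fold.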

Additional observations from a re-analysis of the deposited data

How the results depend on the processing

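Of the 9 early B cell and pre-BCR genes, 6 were lower by more than 2-fold, and the count was 1 with normexp and quantile normalization, 2 when both arrays had to be well above background and 3 at a threshold of 4-fold. It was 4 at 3-fold, 5 without scaling, 7 with median scaling, quantile normalization or the mean of probes, and 6 with the series table, no filter on dim probes or outlier spots kept. No member was higher by more than 2-fold in any of these 11 alternatives. The offset of 50 in normexp is added before the logarithm, which by construction draws the ratios of dim probes toward 0. The planned normexp on mean spot signals used median spot signals, since the files hold no mean. Over all named genes 2179 were past 2-fold, against 722 with normexp, 4108 without the filter on dim probes, 821 at 3-fold and 449 at 4-fold. The filter's removal also took away the bounds, and the measured log2 ratios were then -3.71 for Ebf1, -3.42 for Igll1, -2.69 for Vpreb3 and -1.80 for Blnk. The median of all genes shifted by -0.13 with median scaling, 0.31 without scaling and -0.14 without the filter. Of the genes past 2-fold 54.7% were lower, against 67.3% with normexp, 66.8% with median scaling and 28.8% without scaling. Among the members' values 50 of 68 moved by less than their error, and among the lists' counts 96 of 121 stayed within 1.5 times. Many of the members' values could hardly move, so 50 of 68 does not measure stability. Keeping outlier spots changed none of them, and the series table is the same intensity rounded. The mean of probes changed only Pax5, and the filters left the ratios of Vpreb1, Cd79a, Cd79b and Pax5 unchanged. No paired analysis was possible because there is only 1 array per genotype. With 1 array no replicate could be left out, and no difference has a measured biological error.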
